A study of Mus musculus with 2 samples.

Results

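The genes of the mitochondrial ribosomal proteins, whose symbols begin with Mrpl (large subunit) or Mrps (small subunit) followed by a digit, were read in mouse liver after injection of an adenovirus that, by its label, overexpressed miR-378, a microRNA. Members were chosen by symbol alone, through the RefSeq transcript identifier of each array probe. The array carried 100 probes for 78 such genes, 49 with Mrpl and 29 with Mrps symbols, of 20648 genes named in all. Of the 78, 77 had a probe above background in both pools and could be compared, as could 14285 of the 20648. Mrpl21 was the exception: its single probe was not well above background on either array, so it enters no count below.

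The Ad-378 group was 1 pool of the livers of 5 male mice given the miR-378 adenovirus, and the Ad-Ctrl group was 1 pool of the livers of 5 male mice given the control adenovirus. Both viruses were injected into the tail vein at 8 weeks of age in a dose of 1e9 plaque forming units. No strain, genotype or promoter of the viral insert is stated in the labels. Their protocols place liver collection 2 weeks after injection in both groups, whereas the description of the Ad-378 sample gives 3 weeks, and the extraction they describe used a blood RNA kit with globin removal. The title of the study concerns bile acid synthesis and cholesterol, and names no mitochondrial ribosome. Since each group was read once, no replicate check exists, no test between the groups was run and no p-value is given, and pooling removed the spread between mice. The level of miR-378 itself was not analysed here.

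Mitochondrial ribosomes translate the few proteins encoded in mitochondrial DNA, all of them core parts of the respiratory chain and ATP synthase, on RNA made inside the organelle. Their protein subunits are encoded in the nucleus, made in the cytosol and imported, so that each ribosome combines nuclear and mitochondrial gene products. Many subunits descend from the bacterial ribosome, and many others have no bacterial relative. Liver cells are rich in mitochondria, and hepatocytes make up most of the liver's mass. In mammals, many nuclear genes of mitochondrial function carry promoter sites for the transcription factors NRF1, GABP (a member of the ETS family, also called NRF2) and YY1.

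The 4 promoters that follow are printed to show examples of these sites and, beside them, the window of the lowest member. Mrpl9 and Mrpl17 were among the members furthest above in Ad-378, Mrps22 was also above, and Mrps36 was the lowest member. Each line gives the 250 bases before the annotated transcript start, 5′ to 3′ on the strand of the gene, from RefSeq on mouse build GRCm38.p6. Capitals mark the letters CCGGAAG or its reverse complement CTTCCGG (the ETS site), and GCATGCGC or its reverse complement GCGCATGC (the NRF1 site). Mrps36 has neither, so its line holds no capitals. The windows were picked as examples and do not show a relation between sites and values: the highest member, Mrpl46, has neither run of letters, and Mrpl18, among the 8 lowest, has the ETS letters.
Mrpl9, chr3:94443086-94443335, plus strand: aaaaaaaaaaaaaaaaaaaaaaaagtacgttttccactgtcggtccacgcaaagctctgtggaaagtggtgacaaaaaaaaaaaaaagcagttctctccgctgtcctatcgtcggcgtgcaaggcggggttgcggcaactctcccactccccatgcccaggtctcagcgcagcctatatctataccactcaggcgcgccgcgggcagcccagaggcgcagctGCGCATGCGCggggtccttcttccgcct
Mrpl17, chr7:105811088-105811337, minus strand: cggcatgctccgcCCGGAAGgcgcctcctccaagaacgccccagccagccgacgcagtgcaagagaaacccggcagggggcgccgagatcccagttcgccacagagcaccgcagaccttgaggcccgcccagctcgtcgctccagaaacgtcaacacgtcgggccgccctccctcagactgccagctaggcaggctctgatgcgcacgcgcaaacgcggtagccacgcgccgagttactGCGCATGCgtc
Mrps22, chr9:98601680-98601929, minus strand: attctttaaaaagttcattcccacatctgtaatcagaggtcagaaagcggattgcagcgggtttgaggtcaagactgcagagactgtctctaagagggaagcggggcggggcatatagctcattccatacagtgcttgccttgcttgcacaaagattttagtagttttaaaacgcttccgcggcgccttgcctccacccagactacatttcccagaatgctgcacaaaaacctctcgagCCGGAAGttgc
Mrps36, chr13:100744660-100744909, minus strand: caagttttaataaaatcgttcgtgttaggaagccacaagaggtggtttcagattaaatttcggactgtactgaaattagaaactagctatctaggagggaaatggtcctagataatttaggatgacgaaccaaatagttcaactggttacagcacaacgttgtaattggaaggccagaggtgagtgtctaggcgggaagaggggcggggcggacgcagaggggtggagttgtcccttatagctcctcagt

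In the Mrpl9 promoter the NRF1 letters occur on both strands and overlap, which gives the single run of capitals near its end. RefSeq promoters were matched for 69 of the 78 members, 75 windows in all. The ETS letters, searched on both strands, were in 24% of member windows, in 11.7% of the windows of all genes measured on both arrays and in 6.91% of all RefSeq windows. The NRF1 letters were in 10.7% of member windows, against 3.72% for measured genes and 2.26% overall. AAGATGGC, the letters of a YY1 site, and their reverse complement were in 5.33% of member windows and 1.82% of measured-gene windows. For the general promoter letters GGGCGG (Sp1) the order was different, with 49.3% of member windows and 52.3% of measured-gene windows. The letters of these motifs were chosen after the array values had been seen, and a match describes a window without showing that a factor binds there. Members with and without the ETS letters had median log2 differences of 0.33 and 0.35. For the NRF1 letters these medians were 0.40 over 8 genes and 0.34 over the rest. The widest gap among the 6 motifs searched ran the other way: members with the letters CCAAT, found in 37.3% of member windows and 35.0% of measured-gene windows, had a median of 0.23, and those without them 0.36. TATAAA was in 6.67% of member windows and 7.98% of measured-gene windows.

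Most members had a slightly higher signal in the Ad-378 pool than in the Ad-Ctrl pool, and the differences were small. Values are scaled signals, the processed spot brightness of a probe as a multiple of the 75th percentile of its array, which was a signal of 695 in Ad-378 and 800 in Ad-Ctrl. The log2 difference is that of the scaled signals, Ad-378 minus Ad-Ctrl. Of the 77 members, 72 had a positive difference (93.5%), where 53.9% of all 14285 genes did. The median difference was 0.34, a 1.27-fold ratio, against 0.04 for all genes. No member was 2-fold apart in either direction: 0 of 77 were at least 2-fold higher (2.84% of all genes were) and 0 were at least 2-fold lower (4.52% of all genes). At 1.5-fold, 4 members were higher, beside 8.79% of all genes, and 0 were lower, beside 12.1%. The members were thus spread over a narrow range, with an SD across genes of 0.195, where all genes had 0.580 and genes of like signal 0.461.

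Part of the direction came from the scaling. Before any scaling between the arrays, 58 of the 77 members had the higher signal in Ad-378 and their median difference was 0.14. Of all genes, 33.8% had the higher signal in Ad-378 before scaling, with a median of -0.16. The scaling added 0.20 to every gene. The gap between the members' median and that of all genes was 0.30 with and without it. The genes of like signal were the 4715 within the members' central signal band, 1.35 to 12.5 scaled units. They had a median of 0.06, and 57.3% of them were positive.

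**Figure D1:**
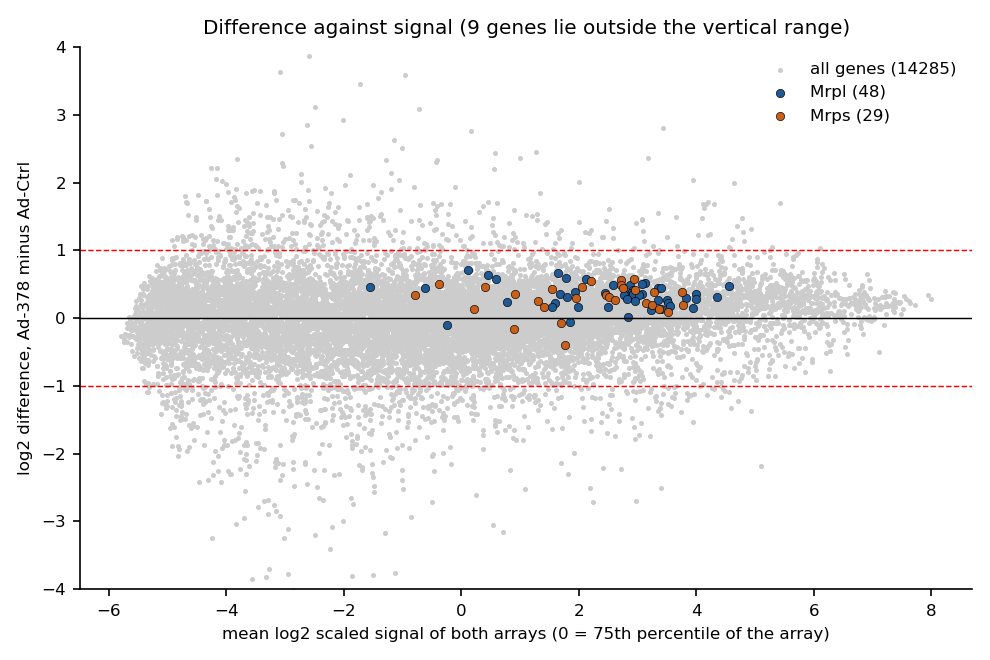
Log2 difference (Ad-378 minus Ad-Ctrl, vertical) against mean log2 scaled signal of both arrays (horizontal) for 14285 genes in grey, with 48 Mrpl genes in blue and 29 Mrps genes in orange. The red dashed lines mark 2-fold, and 72 of the 77 coloured points lie above 0 and none lies beyond either red line.

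The error model of the scanner gave each member's difference an error of 0.204 to 0.206 log2 units, which covers measurement on the array and not mice. Beyond its 95% range lay 26 members on the higher side (33.8%, where 15.9% of all genes did) and 1 on the lower side, Mrps36, which was only just past it (17.4% of all genes). That error is larger than the SD of 0.195 across members, so the order of single members is uncertain. It is also larger than the scatter between copies of a spot. For 3 members, 10 copies of a probe were printed on each array, which shows the scatter directly. Mrpl34, a large subunit protein with a bacterial relative, read 7.37 to 8.20 scaled units over its 10 spots in Ad-378, against 5.84 to 6.90 in Ad-Ctrl. The scaled spots did not overlap, and the difference was 0.28 with an error over spots of 0.029. Mrps35, a small subunit protein found in mitochondria only, read 1.97 to 2.21 in Ad-378 and 1.51 to 1.77 in Ad-Ctrl, again without overlap. Mrpl50, also without a bacterial relative, read 3.27 to 3.65 in Ad-378 and 3.49 to 3.76 in Ad-Ctrl, and these spots overlapped. Its difference was -0.06, with an error over spots of 0.019. Overlap depended on the scaling. In signals before scaling, Mrpl34 overlapped, at 5121 to 5700 in Ad-378 and 4675 to 5518 in Ad-Ctrl. So did Mrps35, at 1367 to 1535 in Ad-378 and 1204 to 1418 in Ad-Ctrl. Mrpl50 did not, at 2275 to 2534 in Ad-378 and 2793 to 3008 in Ad-Ctrl. How often the copies of other probes overlapped is not given here. These copies share 1 RNA pool and 1 array per group.

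The 8 highest members comprised 6 of the large and 2 of the small subunit. Mrpl46, which lies in the central protuberance of the large subunit, had 1.38 scaled units in Ad-378 and 0.845 in Ad-Ctrl, a log2 difference of 0.71. Mrpl9, the mitochondrial form of bacterial protein L9, had 3.94 in Ad-378 and 2.47 in Ad-Ctrl (0.67). Mrpl47, the relative of bacterial L29 near the exit of the peptide tunnel, had 1.71 in Ad-378 and 1.102 in Ad-Ctrl (0.63). Mrpl38, also of the central protuberance, completed the members above 1.5-fold, with 4.23 in Ad-378 and 2.81 in Ad-Ctrl (0.59). It lay just inside that limit at 1.501-fold, and Mrpl1 just outside at 1.48-fold.

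Mrpl1, the relative of the bacterial stalk protein L1 that flanks the exit of spent tRNA, had 1.83 in Ad-378 and 1.23 in Ad-Ctrl. Mrpl17, whose promoter holds both the ETS and the NRF1 letters, had 5.31 in Ad-378 and 3.58 in Ad-Ctrl. Mrps24, the relative of bacterial S3, had 9.29 in Ad-378 and 6.26 in Ad-Ctrl. Mrps34, a mitochondria-specific protein that stabilises the small subunit, had 7.99 in Ad-378 and 5.39 in Ad-Ctrl. All 4 had a log2 difference of 0.57, which is less than the scanner error away from Mrpl46.

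The lowest members held the 5 negative differences. Mrps36 stood apart at -0.40, with 2.94 scaled units in Ad-378 and 3.89 in Ad-Ctrl. Its second probe gave -0.33. Despite its symbol, the Mrps36 protein is absent from structures of the mitochondrial ribosome and is a component of the alpha-ketoglutarate dehydrogenase complex of the citric acid cycle. Mrps6, the relative of bacterial S6, had 1.76 in Ad-378 and 1.98 in Ad-Ctrl (-0.16). Mrpl28, the relative of bacterial L28, had 0.820 in Ad-378 and 0.876 in Ad-Ctrl (-0.10). Mrps15, the relative of bacterial S15, had 3.16 in Ad-378 and 3.31 in Ad-Ctrl (-0.07), and the fifth was Mrpl50. Except for Mrps36, these differences were within the scanner error. The rest of the 8 lowest were positive: Mrpl40, of the central protuberance, at 0.01, Mrps33 at 0.10 and Mrpl18, the relative of the 5S rRNA binding protein of bacteria, at 0.12. Mrpl40 turned negative under 5 of the 9 other scalings and sources of values, Mrps33 under 4 and Mrpl18 under 2.

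**Figure D2:**
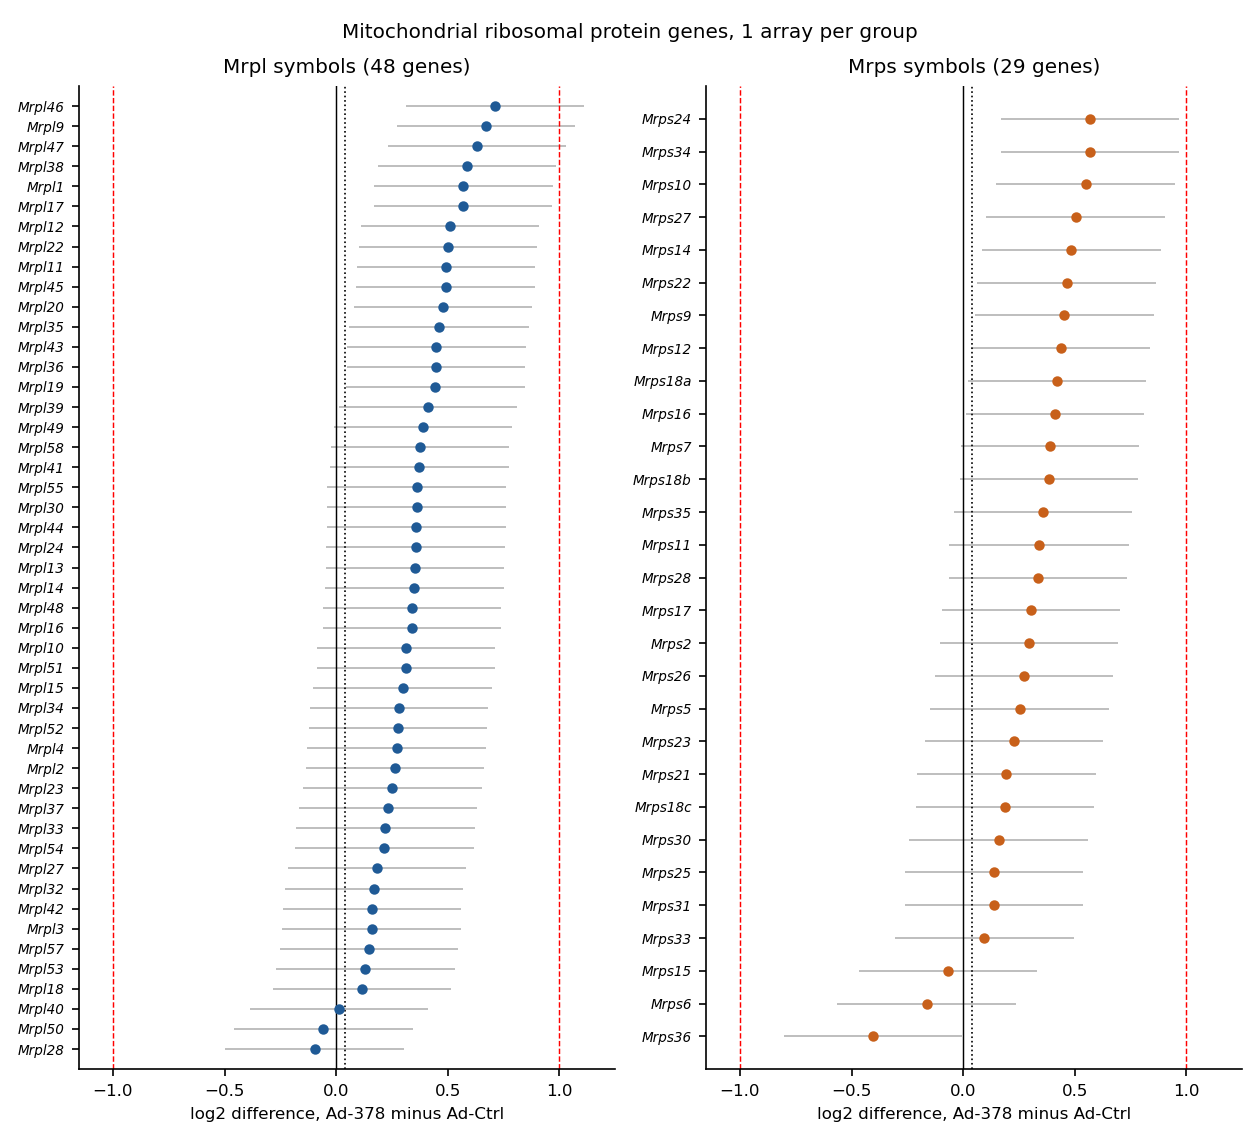
Log2 difference (Ad-378 minus Ad-Ctrl) of each of 48 Mrpl genes (left panel) and 29 Mrps genes (right panel), sorted by value, with bars for the 95% range of the scanner error. The dotted line is the median of all genes (0.04) and the red dashed lines mark 2-fold. Mrpl46 is at the top at 0.71 and Mrps36 at the bottom at -0.40.

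Large and small subunit genes had nearly the same median difference. It was 0.35 over the 48 large subunit genes, of which 46 were positive and 16 lay beyond the scanner range on the higher side. It was 0.34 over the 29 small subunit genes, with 26 positive and 10 beyond the range. Over all genes, 53.9% were positive and 15.9% lay beyond the range on the higher side. The large subunit median exceeded the small one by 0.02, and by 0.00 to 0.02 under the alternatives that were run. Not every symbol names the subunit in which the protein sits. Mrps30 and Mrps18a are built into the large subunit of mammals, and had differences of 0.16 and 0.42. With these moved to the large subunit and Mrps36 in neither, the medians were 0.35 for the large and 0.34 for the small subunit.

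Proteins listed with a bacterial relative and those listed without one had like medians too. In the large subunit as structurally placed, the 29 measured proteins with a bacterial relative had a median of 0.35 (28 positive) and the 21 without one 0.34 (20 positive). In the small subunit the 16 with a bacterial relative had a median of 0.34 (14 positive). The 10 without one had 0.32, and all 10 were positive, beside 53.9% of all genes. These medians differ by far less than the scanner error of a single gene, and no test of a difference between them was possible. Mrps18a and Mrps18b were counted as without a bacterial relative, although their paralog Mrps18c was counted with one.

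Proteins with a known separate role lay within the same range. The stalk of the large subunit recruits the translation factors, and its 3 proteins had a median of 0.49. Mrpl12, the stalk protein also reported to bind the mitochondrial RNA polymerase, had 10.4 scaled units in Ad-378 and 7.31 in Ad-Ctrl (0.51). Mrpl11, at the base of the stalk, had 8.65 in Ad-378 and 6.15 in Ad-Ctrl (0.49), and Mrpl10, which anchors Mrpl12, had 3.87 in Ad-378 and 3.12 in Ad-Ctrl (0.31). Mrpl58 is a peptidyl-tRNA hydrolase that became part of the large subunit, and had 8.43 in Ad-378 and 6.49 in Ad-Ctrl (0.38).

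Mrpl44 and Mrpl3 are large subunit proteins in which human mutations cause cardiomyopathy. Mrpl44 had 3.63 in Ad-378 and 2.83 in Ad-Ctrl (0.36), while Mrpl3 had 5.95 in Ad-378 and 5.33 in Ad-Ctrl (0.16). Mrps12, the decoding centre protein related to the bacterial streptomycin resistance protein S12, had 7.80 in Ad-378 and 5.76 in Ad-Ctrl (0.44). Mrps16 and Mrps22 are small subunit proteins linked to human respiratory chain deficiency. Mrps16 had 8.97 in Ad-378 and 6.75 in Ad-Ctrl (0.41), and Mrps22, whose promoter is printed above with its ETS letters, had 4.89 in Ad-378 and 3.55 in Ad-Ctrl (0.46). Mrps18b and Mrps18c, the paralogs of Mrps18a, had differences of 0.39 and 0.19. The 3 paralogs were all positive, although Mrps18c was at -0.01 without scaling.

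The members with the highest signals were Mrpl20, Mrpl51, Mrpl24, Mrpl52 and Mrpl57, with differences of 0.48, 0.31, 0.36, 0.28 and 0.15. Those with the lowest signals were Mrpl35, Mrps11, Mrpl19, Mrps27 and Mrpl28, with 0.46, 0.34, 0.44, 0.50 and -0.10. Signals depend on the probe, so they do not rank the genes by transcript level. Mrpl20, a relative of bacterial L20, had 27.9 scaled units in Ad-378 and 20.0 in Ad-Ctrl, and Mrpl35, a relative of bacterial L35, had 0.399 in Ad-378 and 0.290 in Ad-Ctrl. The members not described singly were all positive, between 0.13 (Mrpl53) and 0.55 (Mrps10).

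Second probes gave nearly the same picture. In 21 members, 2 probes passed the background filter in both pools. The probes of 1 member differed in sign (4.76%), where 24.3% of 3417 genes with such probes did so. That member was Mrps33, with 0.10 at its brighter probe and -0.15 at its dimmer one. The median gap between the 2 probes was 0.10 for members and 0.16 for all such genes. The largest gap among members was 0.33, in Mrpl49, and both of its probes were positive. Mrpl43 had 0.45 at the brighter and 0.67 at the dimmer probe, and Mrpl47 had 0.63 and 0.57. Probes of a gene share the RNA pools, and members and all genes differ in signal. Agreement in sign also depends on the distance from 0. The members had a median of 0.34 and all genes 0.04, so the 2 shares of sign differences are not a like comparison.

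**Figure D3:**
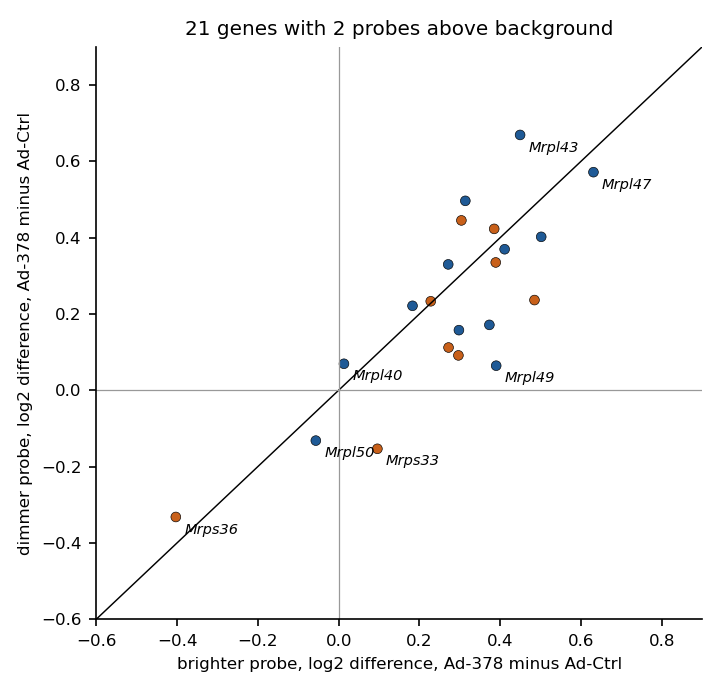
Log2 difference (Ad-378 minus Ad-Ctrl) at the brighter probe (horizontal) and dimmer probe (vertical) of 21 members with 2 measured probes, Mrpl in blue and Mrps in orange. The diagonal marks equal values, and only Mrps33 lies in a quadrant of opposite signs.

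Genes that work with the mitochondrial ribosome had values like those of its proteins, shown in the plot of members and related lists. Over all genes, 53.9% were positive and 15.9% lay beyond the scanner range on the higher side. Of 5 ribosome subunits with other symbols, 4 were positive, with a median of 0.31. Ptcd3, which sits at the mRNA entry of the small subunit, had 13.6 in Ad-378 and 9.103 in Ad-Ctrl (0.58). Dap3, a GTP-binding small subunit protein, had 8.51 in Ad-378 and 8.63 in Ad-Ctrl (-0.02). Of 13 mitochondrial translation factors, 12 were positive and 4 lay beyond the scanner range, with a median of 0.34. The furthest were Taco1, an activator of cytochrome oxidase subunit I translation (0.82), the initiation factor Mtif3 (0.76) and the elongation factor Tsfm (0.57). The exception was the release factor Mtrf1l (-0.15).

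Factors that assemble the ribosome or modify its RNA had a median of 0.35 over 25 genes. Of these, 21 were positive and 11 lay beyond the scanner range on the higher side. The shares over all genes were 53.9% and 15.9%. Rbfa, which matures the small subunit RNA, had 0.72, the rRNA methyltransferase Mrm2 0.71, and the pseudouridine synthase family member Rpusd3 0.66. Mrm2 was dim, at 0.0846 scaled units in Ad-378 and 0.0518 in Ad-Ctrl, with a scanner error of 0.252. The aminoacyl-tRNA synthetase list had a lower median of 0.22 over 20 genes, 15 of them positive. It held both Gatb (0.81), a subunit of the enzyme that makes glutaminyl-tRNA in mitochondria, and the threonyl-tRNA synthetase Tars2 (-0.73). The 16 genes of mitochondrial DNA expression had a median of 0.36, with 15 positive. Hsd17b10, an oxidoreductase that is also part of mitochondrial RNase P, had 90.1 in Ad-378 and 49.2 in Ad-Ctrl (0.87), whereas the mitochondrial RNA polymerase Polrmt differed by 0.01. No probe on the array was named for a gene of mitochondrial DNA, so the ribosome's own templates were not read here. Of 39401 probes, 12188 stayed unnamed, and whether any of them matches such a gene was not checked.

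The respiratory chain and the cytosolic ribosome were compared as the nuclear partners of the proteins made by mitochondrial ribosomes and as the other ribosome of the cell. Of 81 nuclear respiratory chain subunits, 77 were positive and 42 lay beyond the scanner range on the higher side, with a median of 0.41. The shares over all genes were 53.9% and 15.9%. The complex I subunits Ndufb3 (0.93) and Ndufs8 (0.90) were the highest. The lowest were Cox6b2, a testis form of a cytochrome oxidase subunit (-3.06), and Cox7a1, a heart and muscle form (-0.82). Of 81 cytosolic ribosomal proteins, 66 were positive and 1 lay beyond the scanner range on the higher side, beside the same all-gene shares. Their median was 0.12. The sign of that median depended on the scaling: it was -0.04 under both quantile and loess normalization and -0.08 without scaling. The members' median exceeded that of the cytosolic proteins under each of the 10 settings plotted by list. It was below that of the respiratory chain in each of them except quantile normalization, where the members had 0.27 and the chain 0.26. These orderings describe 2 arrays and were not tested.

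**Figure D4:**
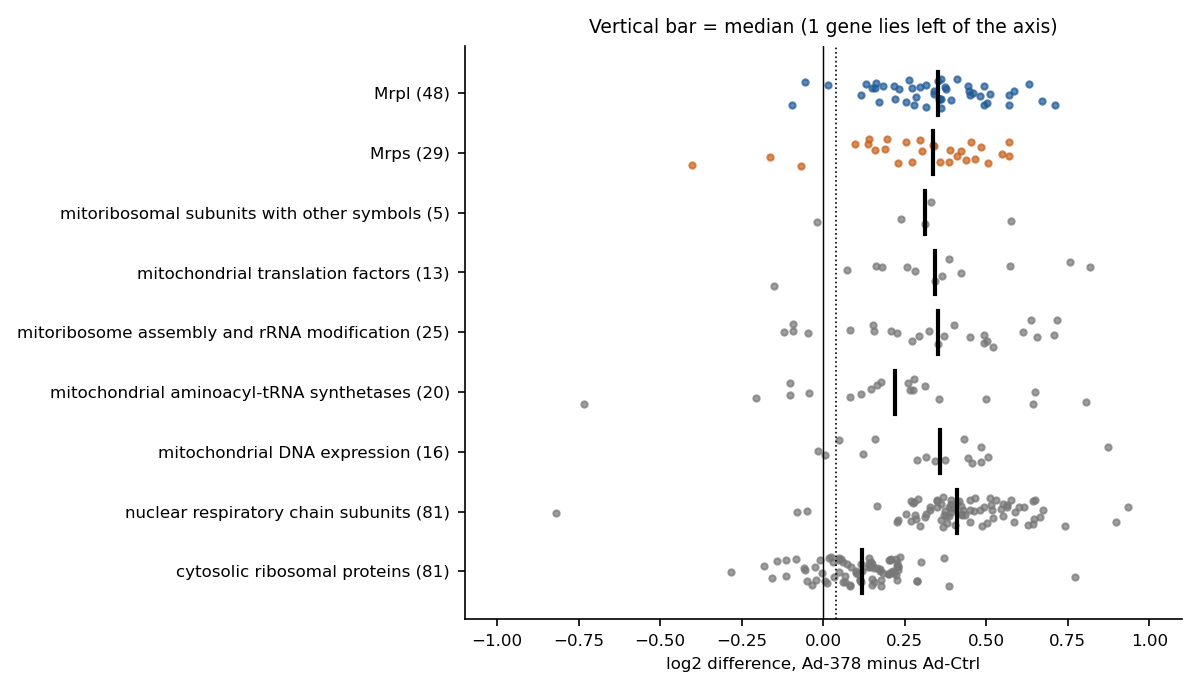
Log2 differences (Ad-378 minus Ad-Ctrl) of the Mrpl genes, the Mrps genes and related lists, 1 point per gene with the number of genes in brackets; vertical bars are medians and the dotted line is the median of all genes. The medians are 0.35 for Mrpl, 0.34 for Mrps, 0.41 for the respiratory chain and 0.12 for cytosolic ribosomal proteins, and Cox6b2 lies left of the axis.

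**Figure D5:**
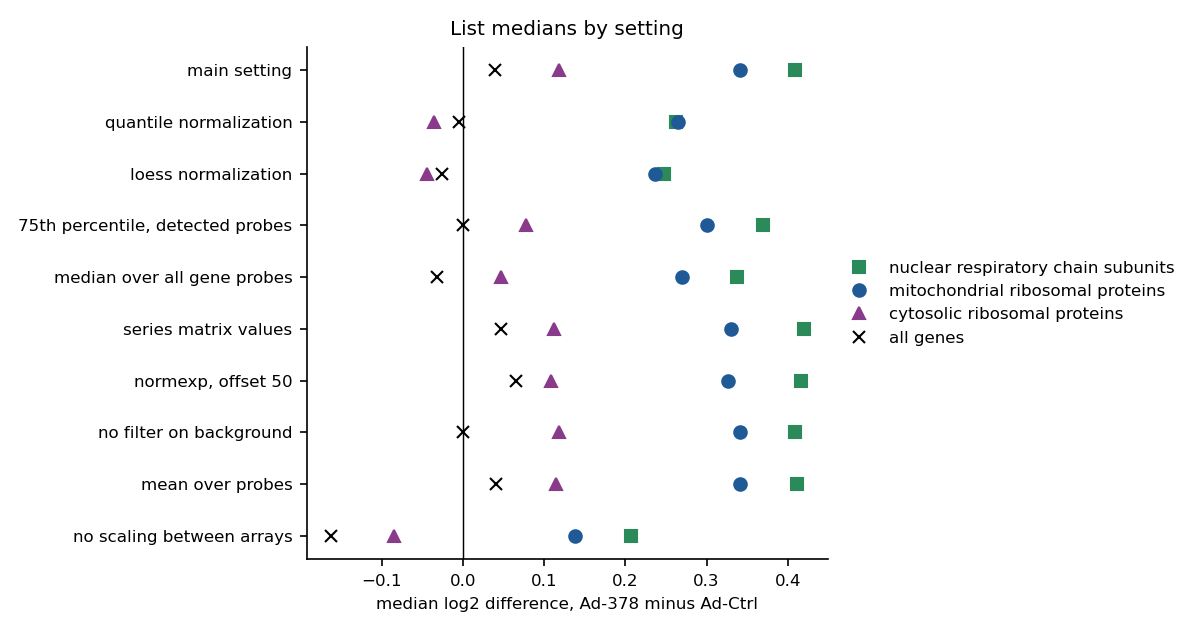
Median log2 difference (Ad-378 minus Ad-Ctrl) of 4 gene lists under the main setting and 9 alternatives. The members (blue circles) run from 0.14 without scaling to 0.34, and lie right of all genes (crosses) and of the cytosolic ribosomal proteins (triangles) in each row.

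Some members share a promoter region with a neighbour on the opposite strand, and both were read. RefSeq lists 24 members whose transcript start lies within 1000 bases of that of a protein-coding gene on the opposite strand. In the 21 pairs with both genes measured, 20 members and 14 neighbours were positive, 1 pair of members being counted from both sides, beside 53.9% positive over all genes. Their medians were close, at 0.34 for the members and 0.32 for the neighbours. That pair was Mrpl46 and Mrps11, 42 bases apart, with differences of 0.71 and 0.34. Mrpl43 and its neighbour Twnk, the mitochondrial DNA helicase, had 0.45 and 0.43, while Mrpl51 had 0.31 and its neighbour Ncapd2, a condensin subunit, -0.75.

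Marker genes of several liver cell types also differed between the pools. Over all genes, 53.9% had a positive difference. All 6 hepatocyte markers, Alb among them, were well above background on both arrays, 5 of them with a positive difference and Hnf4a with a negative one (-0.16). Their median difference was 0.17 (-0.03 under loess), with a summed scaled signal of 822 in Ad-378 and 741 in Ad-Ctrl. All 6 measured Kupffer cell and macrophage markers were lower in Ad-378, with a median of -0.90 and a sum of 50.8 in Ad-378 against 97.7 in Ad-Ctrl. So were all 5 measured stellate cell and fibroblast markers, with a median of -0.46, a range of -2.71 to -0.01 and a sum of 36.2 in Ad-378 against 68.7 in Ad-Ctrl. Most of that gap lay in the collagen genes Col1a1 (3.05 in Ad-378, 14.3 in Ad-Ctrl) and Col3a1 (3.09 in Ad-378, 20.2 in Ad-Ctrl), while Dcn (-0.20) and Lrat (-0.01) were within the scanner error. The 5 markers of dividing cells, all lower, had a median of -2.25 and a sum of 0.750 in Ad-378 against 3.24 in Ad-Ctrl. Of 5 endothelial markers 4 were negative (median -0.21), with a sum of 36.9 in Ad-378 and 44.6 in Ad-Ctrl. Of 5 T and NK cell markers 3 were negative (median -0.51), with a sum of 6.94 in Ad-378 and 7.86 in Ad-Ctrl. All 3 measured neutrophil markers were negative (median -0.38), with a sum of 1.58 in Ad-378 and 1.94 in Ad-Ctrl. Some markers of other cells pointed the other way. All 3 measured B cell markers were positive (median 0.57), with a sum of 0.406 in Ad-378 and 0.281 in Ad-Ctrl. All 3 lay beyond the scanner range on the higher side, but they were dim. Ms4a1 had 0.0520 in Ad-378 and 0.0232 in Ad-Ctrl, with a scanner error of 0.365. Of 3 cholangiocyte markers 2 were positive (median 0.55), with a sum of 0.951 in Ad-378 and 0.593 in Ad-Ctrl. That median was the value of Epcam, at 0.0526 in Ad-378 and 0.0358 in Ad-Ctrl. With a scanner error of 0.294, Epcam was within its range. Krt19 was negative (-0.36), and only Sox9 (0.78) lay beyond the range. Erythroid markers were positive in 1 of 3 (median -0.13, with a sum of 33.8 in Ad-378 and 30.1 in Ad-Ctrl), the positive one being the heme synthesis enzyme Alas2 (2.01). Des, Krt7 and Cd79a, each a defining marker of its list, were not well above background on either array. In pooled whole liver, fewer cells of a type and less RNA per cell cannot be told apart. The part of these shifts in the members' values was not tested.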

How the data were processed

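RNA of 1 pool of livers per group was hybridised to 1-colour Agilent arrays of 44397 spots, 1377 of them controls. The deposited scanner values are intensities. Per the file headers, the processed signal was background-subtracted and detrended within the array, without scaling between arrays. Flags of 0 or 1 for background, saturation and outliers (other values) belong to the deposited files. Agilent Feature Extraction made them, in version 9.1 per the submitters' processing notes and 11.0.1.1 per the file headers. The deposited series matrix equals the raw median intensity in 100% of values (column medians 95 in Ad-378 and 103 in Ad-Ctrl), so its direction is known and it is neither centred nor on a log scale.

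Control spots and outlier spots (123 per array) were left out and spots of a probe averaged. Log2 signals were taken minus the 75th percentile of each array over probes. Of the gene spots, 65.7% in Ad-378 and 63.1% in Ad-Ctrl were well above background, and 0 were saturated. Precision is limited by the number of arrays, which shared 1 slide and scan per the file headers, so there was no scan batch to test. Of 39401 probes, 27213 were named through a RefSeq table of GRCm38.p6 by transcript identifier. The headers give build mm9, so only promoter coordinates, read with that table's build, are printed. Where several probes of a gene passed the background filter in both pools, the brightest was used. The scanner error comes from the deposited error of each spot.

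The members and lists were chosen with earlier results of these data known. The named members were the 8 highest and 8 lowest, the 5 with the highest and the 5 with the lowest signals, those with discordant probes, those whose symbol misplaces the subunit and 12 with known roles, and up to 4 of each related list with the largest differences. The alternatives were quantile and loess (span 0.3) normalization, the 75th percentile over detected probes, the median, the matrix values, normexp (offset 50, fitted without outlier spots), no background filter, the mean over probes, the structural subunit assignment and thresholds of 1.5-fold and 3-fold. Values without scaling, without Mrps36, and the counts beyond the scanner range were added after seeing the data, as were the promoter motifs and neighbours. Dap3, Mtrf1l, Polrmt, Twnk and Ncapd2 were named after their values were seen. The steps were tested on simulated data. Tools were R 4.3.3 with limma 3.58.1, and matplotlib 3.10.9, statsmodels 0.14.6, scipy 1.17.1, pandas 2.3.3 and numpy 2.4.6 under Python 3.11.15.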

Additional observations from a re-analysis of the deposited data

How the results depend on the processing

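No paired analysis was possible because only replicate 1 exists on each side, and for the same reason no replicate could be left out. Of 97 summary values under the alternatives, 85 stayed within their limits and 12 moved. The members' median was 0.24 under loess and 0.14 without scaling, the large subunit median 0.24 and 0.15, and the small subunit median 0.13 without scaling. Members higher beyond the scanner range numbered 13 under loess, 16 with the median as scale and 3 without scaling, against 26. Members lower beyond it numbered 0 on the matrix values, after normexp and without Mrps36, against 1. The shares of all genes beyond the range, 15.9% higher and 17.4% lower, hold for the main setting only. They are not given here for the alternatives, so these counts cannot be read against all genes there. At 1.5-fold, 4 members were higher. Without scaling, the median of all genes shifted by -0.20, which is the construction of that setting; the cause of the other moves was not tested. Between 58 and 72 members were positive, beside 33.8% (without scaling) to 57.8% (normexp) of all genes. The members' median exceeded that of all genes by 0.26 to 0.34. Of 693 single-member values, 693 stayed within the 95% scanner range of the main value, and 14 members changed sign at least once. Much of that count was fixed by construction. The settings that shift every gene equally moved values by less than that range. Dropping the background filter left the measured members as they were, and the mean over probes cannot move a member with 1 probe. Dim probes limit little here, since 77 of 78 members were well above background.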
